A study of Sus scrofa with 59 samples.

Results

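Genes for the proteins of the cytosolic ribosome were examined in the longissimus dorsi, the long muscle of the back, of 59 pigs. The members were the genes whose platform symbol starts with RPL or RPS and a digit, together with RPSA, RPLP0, RPLP1 and RPLP2, leaving out the S6 kinase genes. This gave 64 of the 6765 genes named on the array: 37 of the large subunit, 25 of the small subunit and 2, RPL7L1 and RPS19BP1, that match by spelling without being subunits. The probe set with the highest mean over the arrays stood for each gene. All pigs, 170 days old, came from a cross named LD/LW x Duroc and shared a farm, with muscle frozen at slaughter and 1 Affymetrix porcine array per pig. They formed 1 group, with no treatment, no sex and no array batch in the labels, so the comparisons are between pigs and over all 59 of them.

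The ribosome joins a small subunit, which reads the messenger RNA, to a large subunit, which forms the peptide bond and passes the growing chain through an exit tunnel. Its proteins are made in matched amounts and assembled on ribosomal RNA in the nucleolus. Their mRNAs begin with a run of pyrimidines, the terminal oligopyrimidine or TOP motif, through which mTOR signalling controls their translation, and translation capacity is among the limits on muscle growth.

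Of the 64 genes, 61 had a mean of at least 6.27 log2, the median over all probe sets, and entered the tests, 35 of the large subunit, 24 of the small subunit and both genes that are not subunits. RPL26 (4.55 log2), RPL30 (4.53) and RPS15A (4.71) lay below that limit. RPL10, RPL35A and RPL36 had only probe sets that carry several symbols and were not analysed here, and neither was RPL3L, the muscle paralogue of RPL3. The tissue label held against its markers: all 15 measured of 20 skeletal muscle genes passed the limit, with means from 12.10 to 14.79 log2. Other cells were present too: of 15 macrophage and leukocyte genes on the array 9 passed, among them C1QC (7.72), TYROBP (7.61) and AIF1 (7.33), and 6 such as PTPRC (3.94) and CD79B (4.32) did not. Array medians lay between 6.23 and 6.30 log2. Such arrays hold no molecule counts, and the number of arrays limits the precision.

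Most of these genes varied little from pig to pig. The median SD over the 61 genes was 0.0736 log2, against 0.197 over all 4928 genes tested, and 51 of the 61 had an SD under 0.1. Among bright genes alone, with a mean of at least 13 log2, the median SD was 0.0653 over 48 members and 0.0875 over all 161 genes. The 161 genes include those 48 members. RPS20 of the small subunit ran from 13.92 to 14.08 log2 with a median of 13.99. RPL21 of the large subunit ran from 13.57 to 13.75 with a median of 13.65, RPS26 from 13.79 to 14.01 with a median of 13.90, and RPLP0 from 13.70 to 13.96 with a median of 13.84. These were the 4 smallest spreads, with SDs from 0.038 to 0.047 (n = 59). Values this near the top of the scale are compressed on an array.

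RPL3, which reaches to the peptidyl transferase centre of the large subunit, varied most. It ran from 10.82 log2 in pig 49 through a median of 11.19 to 12.24 in pig 36, a 2.68-fold range on the array scale, with a mean of 11.26 ± 0.31 (SD, n = 59). Its upper values trailed out: the middle of the pigs lay between quartiles of 11.05 and 11.40, and 2 pigs, 36 and 52, exceeded 12. RPS19BP1, whose product binds RPS19 and the deacetylase SIRT1, ran from 8.62 through 9.00 to 9.70 (SD 0.259). RPL37 ran from 8.73 through 9.23 to 9.80 (SD 0.239), and RPL7L1, a nucleolar paralogue of RPL7 that acts in large subunit assembly, from 9.75 through 10.02 to 10.66 (SD 0.192). RPL36AL (SD 0.154) and RPL26L1 (SD 0.151), paralogues of RPL36A and RPL26, followed. The 8 tested members with a mean under 12 log2 were these 6 with RPL22L1 and RPLP2, with RPLP2 the least variable and RPL3 the most.

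**Figure D1:**
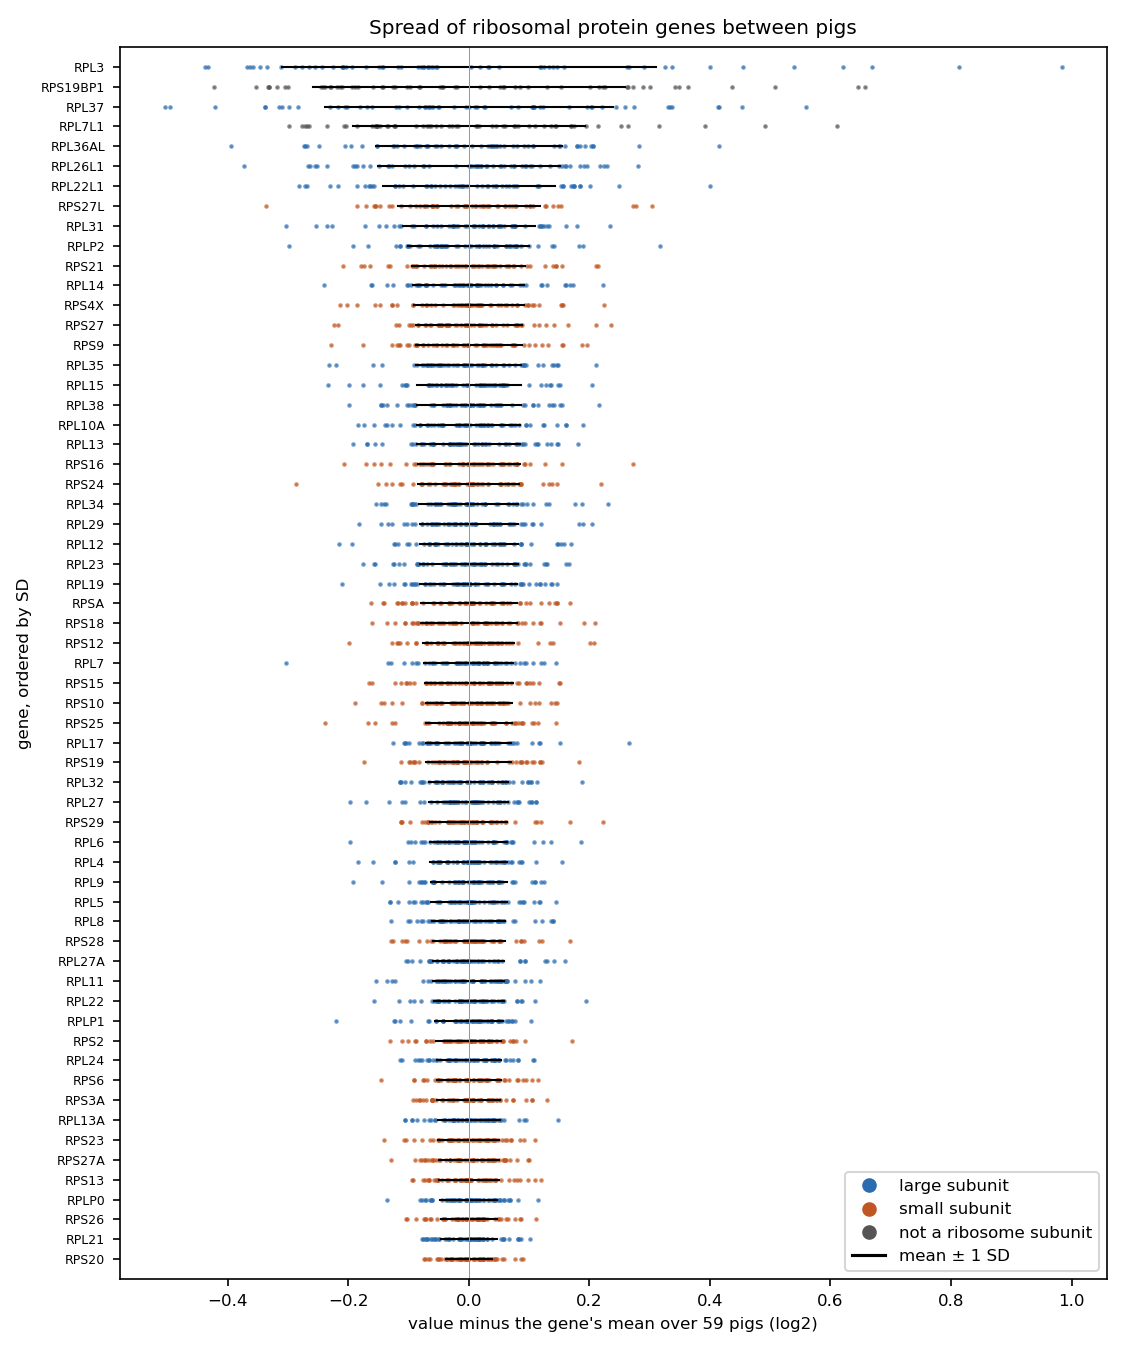
Values of the 61 tested genes in each of 59 pigs, as the difference from the gene's own mean in log2, with genes ordered by SD and a black bar from 1 SD below to 1 SD above the mean. RPL3, RPS19BP1, RPL37 and RPL7L1 stand at the top with SDs of 0.310, 0.259, 0.239 and 0.192, and RPS20 at the bottom with 0.038.

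The ribosomal protein genes varied together between pigs. Pearson's r had a median of 0.414 over the 1830 pairs of the 61 genes, with 155 pairs below 0, against 0.0062 over all pairs of the genes tested and 0.011 over the 113 other genes with a mean of at least 13 log2. The small subunit genes gave 0.454 among themselves, the large subunit genes 0.428, and pairs across the subunits 0.429. The mean of the small subunit genes and that of the large subunit genes correlated at r = 0.905 (rho = 0.927) over the pigs. These are descriptions over arrays that share 1 normalisation, and they carry no p-value. With arrays re-centred on their medians the median pairwise r was 0.516, and with quantile normalisation it was 0.301; re-centring subtracts the same number from every gene of an array, which by itself adds to such a correlation.

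RPL22, an RNA-binding protein of the large subunit, followed the others most closely. It ran from 13.54 log2 in pig 72 through a median of 13.70 to 13.90 in pig 57, and its r to the mean of the other 60 genes was 0.868. RPL32 (0.830), RPS19 (0.827), RPL35 (0.807) and RPS9 (0.807) came next. RPS19 is needed to mature the small subunit and is mutated in Diamond-Blackfan anaemia, RPL35 sits at the end of the exit tunnel, and RPS9 lies at the mRNA entry channel. RPS19 ran from 13.45 in pig 5 through 13.62 to 13.81 in pig 57, and RPS9 from 12.42 in pig 5 through 12.64 to 12.84 in pig 57. In all, 47 of the 61 genes reached an r of at least 0.5, and the median was 0.652.

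At the other end, RPL7L1 (-0.048) and RPS19BP1 (-0.040), the genes that are not subunits, did not follow the rest. RPL37 (0.106), RPL3 (0.156) and RPS27L (0.185), a paralogue of RPS27 that p53 can induce, followed weakly, as did RPLP2 (0.245). These were the 6 genes under 0.3. Re-centring moved RPL7L1 to 0.127, RPS19BP1 to 0.148, RPL37 to 0.175, RPL3 to 0.257 and RPS27L to 0.297. Without the paralogues and the genes that are not subunits, a choice made after the values had been seen, the median pairwise r of the remaining 55 genes was 0.460.

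**Figure D2:**
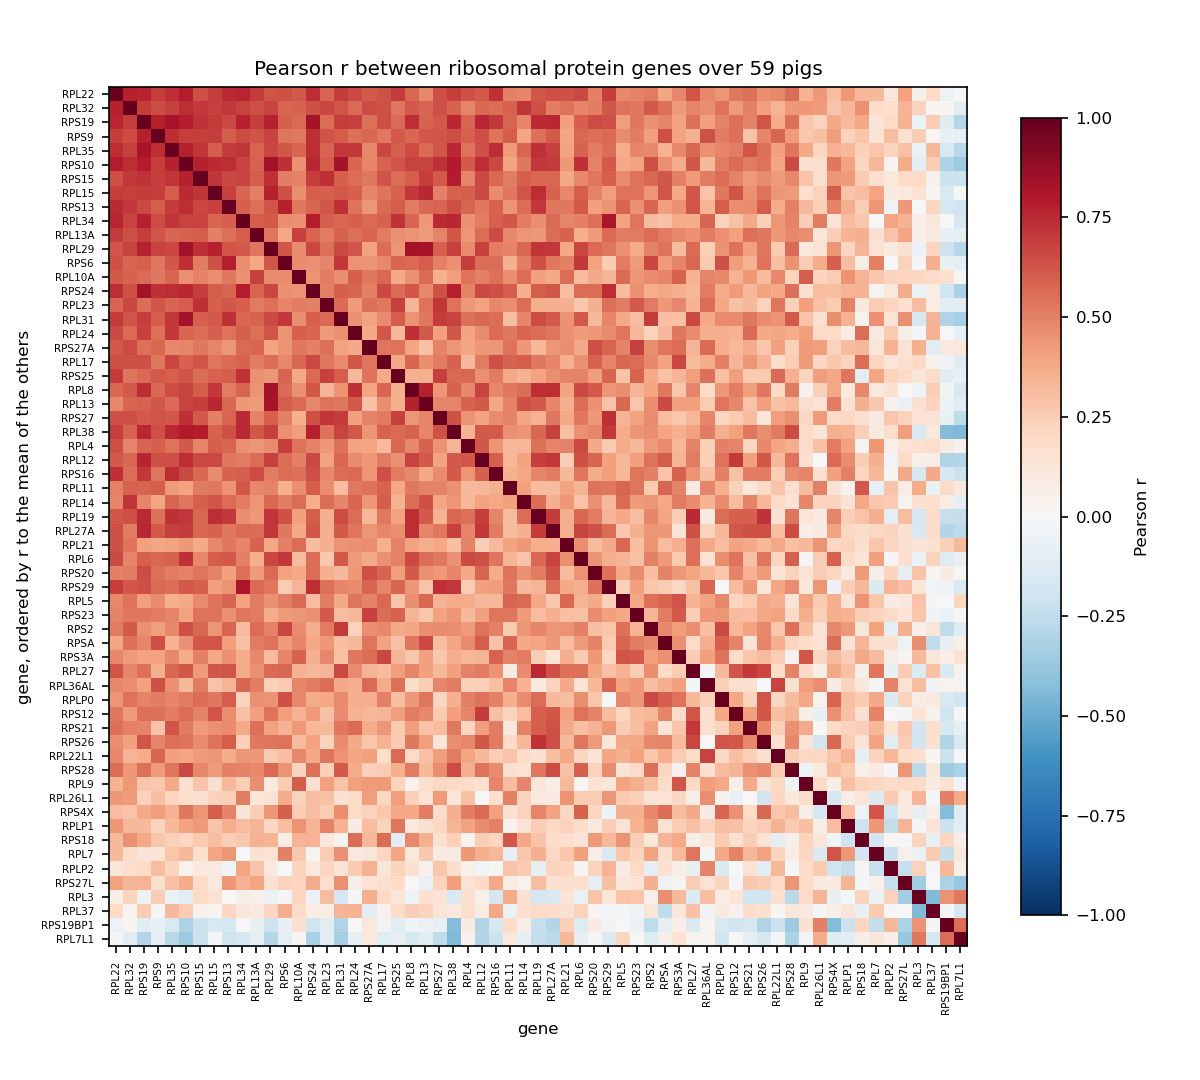
Pearson r over 59 pigs for every pair of the 61 tested genes, from -1 (blue) to 1 (red), with genes ordered by their r to the mean of the others. The red block from RPL22 (0.868) downwards fades towards RPL3 (0.156), RPL37 (0.106), RPS19BP1 (-0.040) and RPL7L1 (-0.048).

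**Figure D3:**
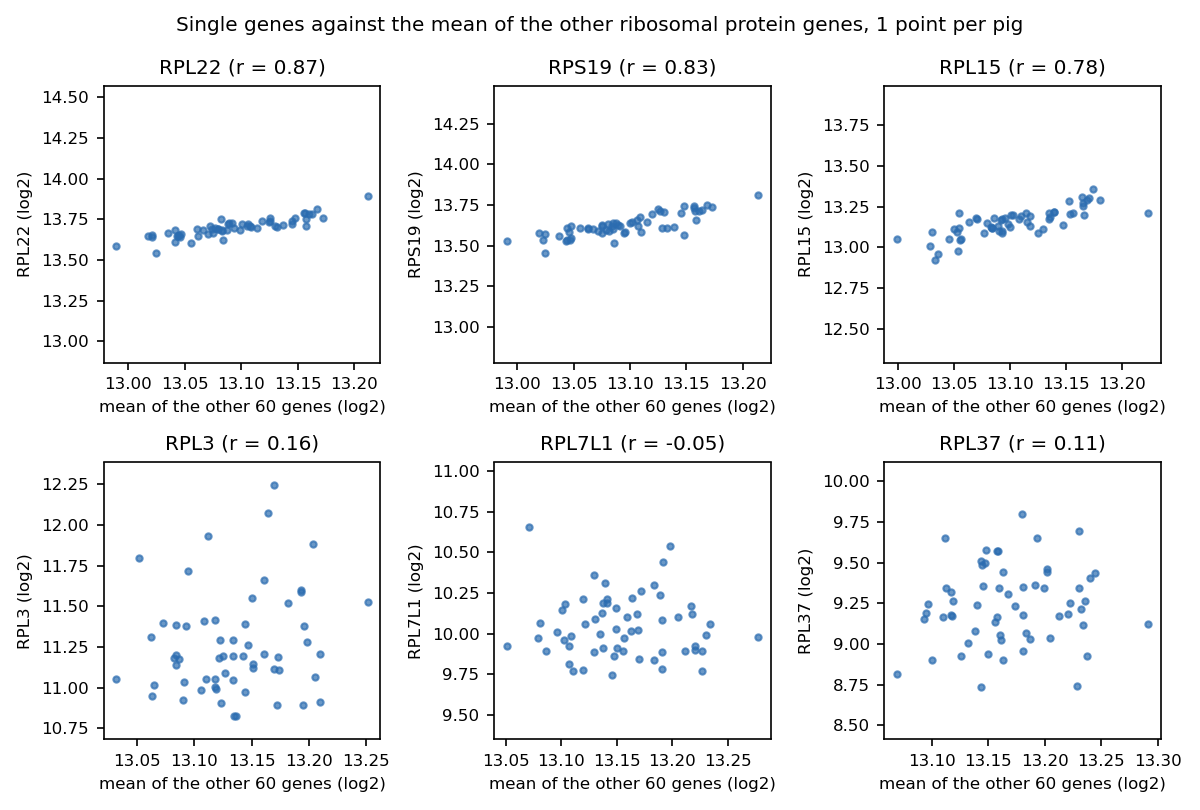
The 6 panels plot single genes against the mean of the other 60 genes, both in log2, with 1 point per pig and the same height of axis in every panel. RPL22 (0.868), RPS19 (0.827) and RPL15 (0.784) follow the mean within a narrow band, while RPL3 (0.156), RPL7L1 (-0.048) and RPL37 (0.106) spread over a wider range without following it.

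The mean of the 61 genes differed little between pigs. It ran from 13.00 log2 in pig 64 through a median of 13.10 to 13.22 in pig 57 (SD 0.0470, n = 59), so the range was 0.224 log2. Pig 57 held the highest value of 22 of the 61 genes and pig 42 of 8. The lowest values were spread more widely, with 12 in pig 72, 10 in pig 5 and 5 in pig 64. The next pigs in the mean were pig 74 at 13.18 and pig 54 at 13.03.

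The mean also went with the array median, the value that separates the brighter from the dimmer probe sets of an array. Its r with the array median was -0.531 (rho = -0.565), and -0.564 without pigs 43 and 58, the most extreme on that measure. It was -0.730 after re-centring, which subtracts that median and so moves r downwards by itself, and -0.420 after quantile normalisation. In a limma fit over all 12000 probe sets, 17 of 61 members were lower and 0 higher with a higher array median at an adjusted p under 0.05, against 18.1% of all probe sets lower and 9.94% higher. Among the members called, the largest slopes were those of RPS19BP1 (-0.118 ± 0.030 log2 per SD, SE, limma adjusted p = 0.00242), RPL26L1 (-0.082 ± 0.017, adjusted p = 0.000277) and RPL36AL (-0.071 ± 0.019, adjusted p = 0.00291). RPL3 had a slope of -0.096 ± 0.038 that was not called (adjusted p = 0.0541). The share of members called lower was 27.9%, and 60 of 61 slopes were negative and 29 members had an unadjusted p under 0.05. The part of the array median in the results that follow was tested only by re-centring, by quantile normalisation and by adding it to the fits.

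**Figure D4:**
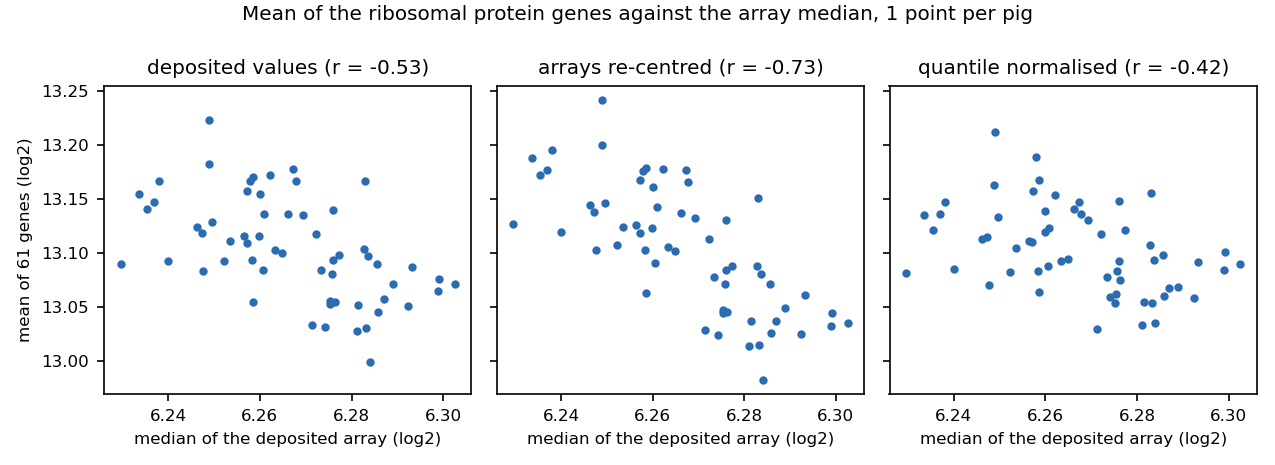
Mean of the 61 tested genes in each pig against the median of the deposited array, both in log2, for deposited, re-centred and quantile normalised values. The points fall to the right in each panel, with r of -0.53, -0.73 and -0.42.

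The next comparison asked whether other mRNAs of the TOP class moved with the ribosomal protein genes. The score was the mean of the standardised log2 values of 21 genes outside the symbol rule, among them the elongation factor genes EEF1A1, EEF1B2, EEF1D and EEF1G, the initiation factor genes EIF3E, EIF3H and EIF4B, and NPM1, BTF3 and PABPC1. Of 61 ribosomal protein genes 34 passed as higher with the score and 0 as lower, beside a background in which 0.977% of all probe sets tested were higher and 0.142% lower. Members made up part of that background: of the 11888 probe sets that belong to no member, 79 were higher (0.665%). In all, 59 of 61 slopes were positive, with a median slope of 0.036 log2 per SD against 0.0040 over all probe sets, and 52 members had an unadjusted p under 0.05.

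Among the members called, RPL22L1, a paralogue of RPL22, RPL15 and RPS9 had the largest slopes; RPL37, at 0.063 ± 0.030, was not called (limma adjusted p = 0.418). RPL22L1 ran from 11.07 log2 in pig 64 through 11.34 to 11.75 in pig 36, and its slope on the score was 0.066 ± 0.017 log2 per SD (SE over 59 pigs, limma adjusted p = 0.0385). It was not called with quantile normalisation, with the array median as a second covariate or without pigs 42 and 64, the most extreme in the score. RPL15 and RPS9 were called under each of these settings. RPL15, a core protein of the large subunit, ran from 12.92 in pig 33 through 13.17 to 13.36 in pig 42, and was higher by 0.063 ± 0.0096 (adjusted p = 9.1e-05). RPS9 was higher by 0.058 ± 0.010 (adjusted p = 0.000884). The anaemia gene RPS19 was higher by 0.053 ± 0.0083 (adjusted p = 9.1e-05). All these slopes are under 0.1 log2.

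By role, the calls fell on 13 of 24 small subunit genes and 21 of 35 large subunit genes, beside 55.7% of all tested members. All 6 tested genes of the exit tunnel and its end were higher, namely RPL4, RPL17, RPL19, RPL22, RPL31 and RPL35. With quantile normalisation only RPL19 and RPL35 of these passed. Of 11 tested genes chosen here as examples of those mutated in Diamond-Blackfan anaemia, 7 were higher. At the mRNA entry and decoding site RPS9 and RPS23 were higher and RPS2 was not called. RPS6, the substrate of the S6 kinases, was higher by 0.031 ± 0.0080 (adjusted p = 0.0313), and RPL11 of the 5S particle by 0.032 ± 0.0086 (adjusted p = 0.0386). Neither RPS6 nor RPL11 passed with quantile normalisation or with the array median as a second covariate. None of the 3 genes of the P stalk, which recruits elongation factors, was called, and of 5 paralogues only RPL22L1 was. Whether the roles differ in slope was not tested.

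The size of this count depended on the scaling and on the list. With re-centred arrays 54 members were higher (5.36% of all probe sets) and with quantile normalisation 10 (0.434%). No member was lower under either, beside 0.635% and 0.0835% of all probe sets. The list holds FAU, which encodes a small subunit protein fused to a ubiquitin-like protein, and RACK1, which sits on the small subunit. Without these, a choice made after the values had been seen, 22 of the members were higher, all among the 34, against 0.468% of all probe sets, and 0 were lower against 0.0919%. Without pigs 42 and 64, the most extreme in the score, 19 were higher against 0.426% of all probe sets, and 0 were lower against 0.0418%. The members' median slope was 0.035 in both of these fits, beside 0.036 in the fit over all pigs and the full list.

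As a description, the score correlated with the mean of the 61 genes at r = 0.768 (rho = 0.807), at 0.737 without the extreme pigs, at 0.857 re-centred and at 0.662 after quantile normalisation. The genes of the list differed. EEF1B2, a subunit of the factor that recharges elongation factor 1A, had an r to the members' mean of 0.719, EIF3E 0.668, BTF3 0.634, FAU 0.589, EIF4B 0.587 and the nucleolar chaperone NPM1 0.521. EEF1A1 (0.023), PABPC1 (0.104), TPT1 (0.120), NACA (-0.069) and EIF4A2 (-0.173) did not follow it. Re-centring moved TPT1 to 0.447 and EEF1G from 0.191 to 0.385.

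**Figure D5:**
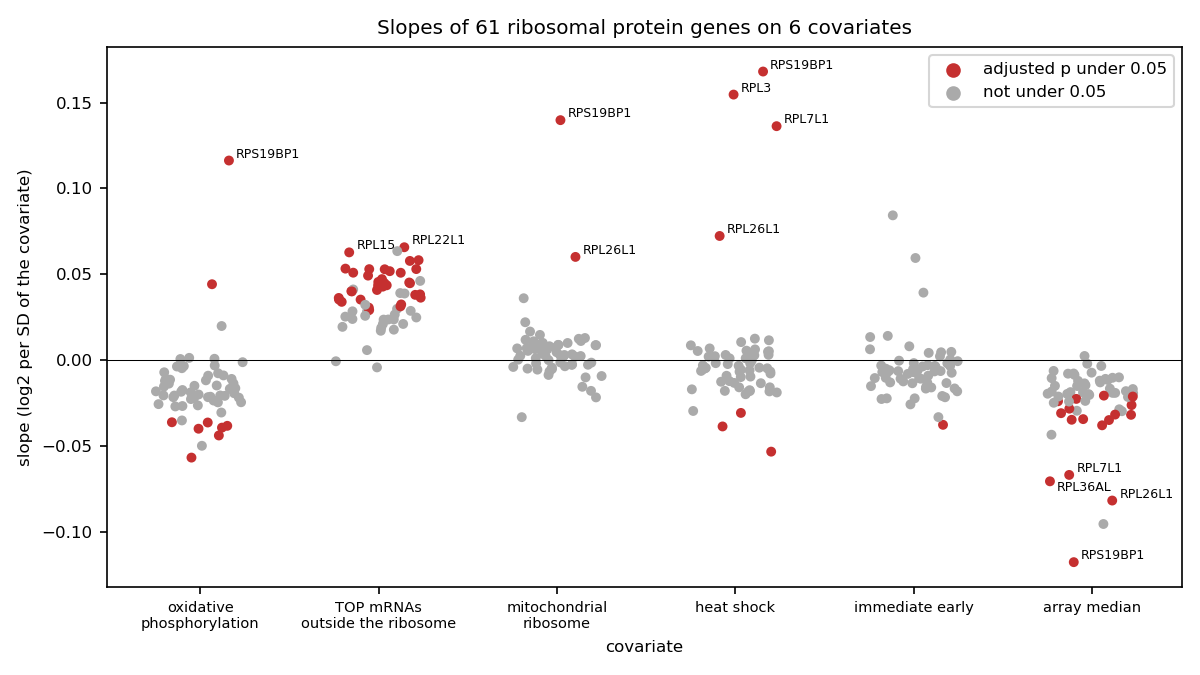
Slope of each of the 61 tested genes on 6 covariates, in log2 per SD of the covariate, with genes at a limma adjusted p under 0.05 in red. The TOP column lies almost wholly above 0 with 34 red points, and RPS19BP1, RPL3 and RPL7L1 stand apart in the heat shock column at 0.168, 0.155 and 0.136.

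Oxidative phosphorylation, the respiratory chain and ATP synthase of mitochondria, was then set against the members, since the fibre types of muscle differ in it. Of 61 ribosomal protein genes 7 passed as lower with a score over 34 of its genes, against 2.94% of all probe sets, and 2 passed as higher, against 6.91%. The slopes were negative for 55 of the 61. RPS4X, a small subunit protein encoded on the X chromosome, ran from 12.66 log2 in pig 72 through 12.87 to 13.10 in pig 49 and had a slope of -0.057 ± 0.011 log2 per SD (SE over 59 pigs, limma adjusted p = 9.9e-05). RPL7, which ran from 13.18 in pig 72 through 13.49 to 13.63, had a slope of -0.044 ± 0.0095 (adjusted p = 0.000727), and RPL15 one of -0.040 ± 0.011 (adjusted p = 0.0141). RPS12, RPL12, RPL13 and RPSA had slopes between -0.039 and -0.036. The genes that were higher were RPS19BP1 (0.116 ± 0.030, adjusted p = 0.00645) and RPLP2 of the P stalk (0.044 ± 0.013, adjusted p = 0.0178).

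Many of these calls depended on pig 72. That pig was among the most extreme in the score, held the lowest value of RPS4X, RPL7, RPS12 and RPL12, and held the highest value of RPLP2. Without it 2 members, RPL7 and RPS4X, were lower and 0 were higher by limma at the same threshold, with 18 members at an unadjusted p under 0.05 against 28 with it. The calls over all probe sets fell as well, to 0.978% lower and 4.52% higher. Over the members as a set the slopes moved little: 55 of 61 were negative with and without pig 72, with medians of -0.019 and -0.017. The slopes of single members without pig 72 are not given here. With re-centred arrays 3 members were lower (RPL7, RPS12 and RPS4X, against 1.99% of all probe sets) and 2 higher (8.25%). With quantile normalisation 10 were lower (3.14%) and 2 higher (7.06%). RPL7 and RPS4X passed in each of these, with slopes of -0.038 and -0.052 after re-centring. The correlation of this score with the members' mean was -0.337 (rho = -0.310), -0.251 without pigs 36 and 72 and -0.132 after re-centring.

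The mitochondrial ribosome, a separate machine encoded by the 58 MRPL and MRPS genes tested here, went with few of the members. Only RPS19BP1 (0.140 ± 0.029 log2 per SD, limma adjusted p = 0.000601) and RPL26L1 (0.060 ± 0.019, adjusted p = 0.025) were higher with its score, 2 of 61 genes against 9.66% of all probe sets, and 0 were lower against 3.13%. Of the 61 members 3 had an unadjusted p under 0.05. With re-centred arrays 5 members were higher (17.4%) and 0 lower (2.66%), and with quantile normalisation 1 was higher (8.36%) and 1 lower (6.81%). The score and the members' mean correlated at r = 0.120 (rho = 0.140), and at 0.374 after re-centring.

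Heat shock genes, the chaperone genes that rise under protein stress, went with some of the genes that followed the ribosome least. With a higher heat shock score 4 of 61 genes were higher, against 23.1% of all probe sets, and 3 were lower, against 22.2%, so far fewer members were called than probe sets at large. RPS19BP1 was higher by 0.168 ± 0.026 log2 per SD (SE over 59 pigs, limma adjusted p = 3.23e-07). RPL3 was higher by 0.155 ± 0.035 (adjusted p = 0.000239), RPL7L1 by 0.136 ± 0.018 (adjusted p = 1.19e-08) and RPL26L1 by 0.072 ± 0.018 (adjusted p = 0.000758). RPS27L (-0.053 ± 0.015, adjusted p = 0.00214), RPL38 (-0.039 ± 0.011) and RPS21 (-0.031 ± 0.013, adjusted p = 0.0419) were lower. RPL3, RPS19BP1, RPL7L1 and RPL26L1 kept their direction and passed with re-centred arrays (25.5% of all probe sets higher, 18.6% lower) and with quantile normalised arrays (20.8% and 24.7%). Under the former 1 member was lower, under the latter 8. The median slope of the members was -0.0046, beside -0.0053 over all probe sets.

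Immediate early genes, induced within minutes by a stimulus, called 1 member. RPS21 of the small subunit ran from 13.17 log2 in pig 66 through 13.39 to 13.59 in pig 19 and had a slope of -0.038 ± 0.012 log2 per SD of the score (limma adjusted p = 0.03). No member was higher. Among all probe sets 8.91% were lower and 7.14% higher. With re-centred arrays no member was called (7.83% of all probe sets lower, 7.93% higher), and with quantile normalisation 1 was lower (9.11%) and none higher (6.75%). The call was not made without the filter, without the most extreme pigs of the score or with the 3' minus 5' difference of control probe sets in the fit.

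Partner and paralogue pairs within the ribosome were tested next, 9 pairs with both genes measured, over 59 pigs by two-sided permutation tests with Benjamini-Hochberg adjustment over the 9. RPL5 and RPL11, which bind 5S ribosomal RNA together and, when free, the p53 regulator MDM2, rose and fell together (r = 0.580, permutation p = 1e-05, the smallest that 100000 resamples can give, adjusted p = 9e-05, and rho = 0.543, permutation p = 5e-05, adjusted p = 0.00036). RPL5 ran from 13.20 through 13.33 to 13.47 log2 and RPL11 from 13.48 through 13.64 to 13.75, both highest in pig 57. RPL22 and RPL22L1 also passed (r = 0.477, permutation p = 0.00017, adjusted p = 0.000765, rho = 0.493, permutation p = 8e-05). So did RPS6 and RPS27A, the latter made as a fusion with ubiquitin (r = 0.448, permutation p = 0.00045, adjusted p = 0.00135, rho = 0.437, permutation p = 0.00069). The test asks whether r differs from 0, and the median over all member pairs was 0.414, so a pass says nothing particular to partners or paralogues. Without the 2 pigs most extreme in the former gene these r were 0.4995, 0.524 and 0.413. The pair RPS6 and RPS27A did not pass with quantile normalisation (r = 0.130, adjusted permutation p = 0.366).

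The stalk proteins did not pass as pairs. RPLP0, the anchor of the stalk, and RPLP1 gave r = 0.298 (permutation p = 0.0229, adjusted p = 0.0515, rho = 0.276, permutation p = 0.0348). They passed with re-centred arrays (r = 0.447, adjusted permutation p = 0.00072). RPLP0 and RPLP2 gave -0.137 (permutation p = 0.301, adjusted p = 0.339, rho = -0.128, permutation p = 0.334), and 0.040 re-centred. RPLP1 and RPLP2 gave -0.241 (permutation p = 0.0657, adjusted p = 0.118, rho = -0.119, permutation p = 0.366), and 0.0026 without the 2 pigs most extreme in RPLP1. In pig 72 RPLP1 was lowest, at 13.90 log2 beside a median of 14.12, and RPLP2 highest, at 12.29 beside a median of 11.97.

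Of the remaining pairs, RPS27 and RPS27L gave r = 0.230 (permutation p = 0.0805, adjusted p = 0.121, rho = 0.153, permutation p = 0.246) and passed re-centred (0.30, adjusted permutation p = 0.0371). RPL3 and RPL4, which both contact the core of the large subunit, gave 0.162 (permutation p = 0.219, adjusted p = 0.282, rho = 0.086, permutation p = 0.517). RPL7 and RPL7L1 gave 0.111 (permutation p = 0.401, adjusted p = 0.401, rho = 0.130, permutation p = 0.325). In all, 3 of the 9 pairs passed with the deposited values, 5 with re-centred arrays and 2 with quantile normalisation.

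RPL3 varied with genes other than its partners. Its r to the other 60 members ran from -0.445 (RPL37) to 0.526 (RPL7L1), with a median of 0.096, while 9 of 4927 genes exceeded 0.8. The nearest were TUBA1B for a tubulin (0.879, rho = 0.812), S100A11 for a calcium-binding protein (0.861), HK1 for hexokinase (0.856), TIMP1 for an inhibitor of matrix proteases (0.849) and CFL1 for cofilin (0.836). Those farthest below 0 included MYOM1 for myomesin of the sarcomere (-0.658) and PDE4C (-0.666). These genes were picked for their values, over 59 pigs on the same arrays, and carry no test.

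Some markers of other cells moved with RPL3. Its r was 0.511 (rho = 0.474) with the mean of 9 macrophage and leukocyte genes that passed the limit, of 15 on the array. The summed level of those 9, as a mean, ran from 6.27 to 8.05 log2 over the pigs, and PTPRC, CD3E, CD2 and CD79B lay below the limit. It was 0.356 with 10 fibroblast and matrix genes (9.26 to 10.48 log2), 0.290 with 6 smooth muscle and pericyte genes, 0.238 with 9 endothelial genes, 0.086 with 2 nerve and Schwann cell genes, 0.070 with 5 adipocyte genes and -0.355 with the 15 muscle genes. Re-centring moved the r of RPL3 with the muscle genes to -0.172. Without the 2 pigs most extreme in the muscle score it was -0.252. With 22 genes of ribosome biogenesis the r of RPL3 was 0.503 (rho = 0.318), and 0.356 without the 2 pigs most extreme in that score. The part of these cells in the spread of RPL3 was not tested, and in whole muscle more cells of a type and more RNA per cell cannot be told apart.

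Some single markers of other cells went with the mean of the 61 members, while the list scores, given below, followed it little. HBB, a haemoglobin gene of red blood cells, ran from 8.47 to 9.41 log2, and its r to the members' mean was 0.514 (rho = 0.467), or 0.599 after re-centring. It was the only red blood cell gene above the limit of 3 on the array, with ALAS2 (6.10) and AHSP (5.22) below it, and the part of red blood cells in the members' values was not tested. Of the fibroblast and matrix genes, the collagen gene COL1A2, with a mean of 7.23 log2, had an r of -0.514 to the members' mean. LUM, for lumican, went the opposite way with an r of 0.350, and the score of that list gave 0.017. The part of these genes was not tested either. With the scores of the 6 other cell lists, each of 2 or more tested genes, r lay between -0.153 and 0.027. With the muscle genes it was -0.296, which re-centring turned to 0.082.

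RPL7L1 and RPS19BP1 went with other gene sets than the subunits. RPL7L1 had an r of 0.801 (rho = 0.748) with the ribosome biogenesis genes, 0.742 with the proteasome genes and 0.709 with the heat shock genes. The genes nearest to it were XPO5, which exports microRNA precursors (0.863), LRRC59 (0.852) and PRPF4B (0.850), with the nucleolar methyltransferase gene NOP2 at 0.835. RPS19BP1 had an r of 0.648 with the heat shock genes, 0.645 with the biogenesis genes and 0.539 with the mitochondrial ribosome. Its nearest genes were TIMM21 (0.820), TIMM22 (0.806) and TIMM8A (0.803), all of mitochondrial protein import. These too are descriptions of genes picked for their values.

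Among genes outside the list, the nearest to the mean of the 61 were LOC100525692 (0.774), RAN, the GTPase of nuclear transport (0.747), EEF1B2 (0.719), B2M, the light chain of class I histocompatibility molecules (0.686), TBCA, a tubulin folding cofactor (0.682), PPIL3 (0.677), CTNNB1 for beta-catenin (0.676) and EIF3E (0.668). The farthest below 0 were LOC100156879 (-0.646), MDH2 and GOT2, mitochondrial enzymes of the malate-aspartate shuttle (-0.632 and -0.629), MAN2B1 (-0.610), ACADVL of fatty acid oxidation (-0.578), ATP5A1 (-0.572), TP53INP2 (-0.567) and PDHA1 of pyruvate dehydrogenase (-0.563). After re-centring, LOC100525692, RAN, EEF1B2, B2M, TBCA, PPIL3 and EIF3E were again among the 8 highest, joined by MAPKAPK5 (0.721). Of the 8 lowest MAN2B1 alone was again there (-0.602), beside RHOT2 (-0.621), GMIP (-0.604), COL1A2 (-0.568), ANKZF1 (-0.559), MXD3 (-0.554), SPNS1 (-0.552) and ATP13A2 (-0.550). The negative end therefore changed with the centring of arrays more than the positive end did.

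Of the 64 genes 24 had several probe sets, with 32 besides the brightest. Of these 9 lay below the limit and 23 above it, and over the 23 the r to the brightest had a median of 0.111, with 2 at or above 0.5. RPL31 (0.981) and RPL27 (0.802) had a second bright probe set that followed the first. For RPS18 the other probe sets, with means of 13.39 and 12.61 log2, gave only 0.258 and 0.356. RPL9 (-0.248), RPLP1 (-0.234) and RPLP0 (-0.134) had dimmer probe sets that went the other way. With every gene taken as the average of its probe sets, the median pairwise r was 0.225 and 15 members were higher with the TOP score.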

How the data were processed

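Total RNA of 59 muscle samples was hybridised to 1 array each, per the labels' protocols. The deposited table holds log2 values, processed by the authors with GCRMA per the submitters' processing notes (version not given in the sources used here). No label states the log base, which was taken as 2 from the range of 2.39 to 15.04. GCRMA compresses dim values. The 24123 probe sets included 124 controls, and the 12000 whose mean reached the median of all means entered the tests.

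Members, lists and tests were chosen with earlier results of these data known. List scores averaged the standardised values of the tested genes and were scaled to SD 1. Slopes per SD were fitted with limma 3.58.1 (lmFit and eBayes, R 4.3.3), leaving out the list's own probe sets, with Benjamini-Hochberg adjustment over all probe sets and a threshold of 0.05. On simulated data for the oxidative phosphorylation fit with 11958 probe sets, 99% of 200 changed probe sets (slope 0.8 SD) were recovered. The simulated probe sets varied independently of each other. The members' slopes in this fit were smaller beside their SDs (medians of -0.019 and 0.0736 log2), and the recovery of such slopes was not simulated. Correlations used Python 3.11.15 with numpy 2.4.6, pandas 2.3.3 and scipy 1.17.1; figures used matplotlib 3.10.9. P-values rest on the spread between pigs with 1 array each, in which animal and array differences cannot be told apart.

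Named members were those with the 6 highest and 4 lowest SDs, the 5 highest and 5 lowest r to the others, the pairs and role groups, and up to 3 slopes per direction and fit; of other genes, the 8 highest and 8 lowest r to the members' mean. Further genes of the TOP list and the genes nearest to RPL3, RPL7L1, RPS19BP1 and RPL37 were picked after their values had been seen. Alternatives were re-centring, quantile normalisation, no filter, averaging a gene's probe sets, Spearman's rho, extreme arrays left out and the array median as a covariate. Sequences, genome positions and trait values were not used here.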

Additional observations from a re-analysis of the deposited data

How the results depend on the processing

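Of 104 alternative counts of called members, 75 lay within 1.5 times the main count, and the cause of the others was not tested. The 75 include alternatives in which both counts were 0, as for members lower with the TOP score, so they overstate how stable the calls were. With the oxidative phosphorylation score, 7 members were lower with the deposited values, 3 re-centred, 13 with the array median as a second covariate, 12 with the 3' minus 5' difference as one and 3 without pigs 36 and 72, where 1 was higher in place of 2. Leaving out pig 57 or pig 72 gave 2 to 7 lower and 0 to 2 higher. With the TOP score, 34 members were higher, 54 re-centred, 10 quantile normalised, 15 with probe sets averaged, 19 without pigs 42 and 64 and 22 without FAU and RACK1. With the mitochondrial ribosome score, 2 members were higher, 5 re-centred, and 1 with quantile normalisation, with the array median as a covariate or without the extreme pigs. There 0 were lower, 1 with quantile normalisation and 2 with the array median as a covariate. With the heat shock score, 7 were higher with probe sets averaged in place of 4. There 3 were lower, 1 re-centred, 8 quantile normalised, 14 with the array median as a covariate and 5 with probe sets averaged. With the immediate early score, 1 was lower, 2 with probe sets averaged, and 0 re-centred, with no filter, without the extreme pigs and with the 3' minus 5' difference as a covariate. With the array median, 0 were higher, 2 with probe sets averaged.

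The median pairwise r of 0.414 was 0.516 re-centred, 0.301 quantile normalised, 0.225 with probe sets averaged and 0.460 without paralogues and genes that are not subunits. It was 0.393 to 0.406 without pig 57 or pig 72. The median SD of 0.0736 was 0.0881 with probe sets averaged. Of the 9 pairs 3 passed, 5 re-centred and 2 quantile normalised. Of 18 alternative values of r in these pairs, 14 kept direction and call. RPLP0 and RPLP2 turned from -0.137 to 0.040 re-centred. A move of over 10 percent counted as a change for values without a test.

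The 3' minus 5' covariate, the lists without FAU and RACK1 or without paralogues, and leaving out pig 57 or pig 72 were chosen after seeing the data. No paired analysis was possible because all arrays form 1 group. Differences of bright genes are compressed, and most members are bright.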

Other observations

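RPL37, a zinc-binding protein of the large subunit, had the third largest spread and followed neither the other members nor most lists. It was read by 1 probe set, with a mean of 9.24 log2. For other members, 23 further probe sets above the limit had a median r of 0.111 to the brightest one. Whether the RPL37 probe set reads its gene better than those was not tested. The r of RPL37 was -0.414 (rho = -0.399) with the macrophage and leukocyte genes, where RPL3 had 0.511, and -0.318 with the fibroblast and matrix genes. Its nearest gene was RNF216, a ubiquitin ligase gene, at 0.591 (rho = 0.598). Those farthest below 0 included the macrophage receptor gene MRC1 (-0.526) and DAB2 (-0.533). The levels of the macrophage list are given above, and their part in the values of RPL37 was not tested.

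Genes of ribosome biogenesis, of initiation control and of the proteasome were weakly related to the mean of the 61 members. The r was 0.178 (rho = 0.174) with 22 ribosome biogenesis genes, 0.059 with 13 genes of cap binding and initiation control and -0.035 with 29 proteasome genes. After re-centring these were 0.364, 0.357 and 0.130. The control probe sets for ribosomal RNA gave r from -0.084 to 0.293 with the members' mean. The difference between 3' and 5' probe sets of the EF1A and actin controls, a measure of RNA quality, averaged 2.61 log2 (2.14 to 4.10) and gave r = 0.247 (rho = 0.159).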
